A study of Mus musculus with 4 samples.

Results

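The 8 genes described here encode hypothalamic neuropeptide precursors, namely Oxt, Avp, Pmch, Hcrt, Agrp, Pomc, Trh and Cartpt. They were taken by name, with earlier results of these data known, from the 31053 genes counted in a single-nucleus RNA-seq experiment on mouse brain. The 4 libraries held 78728 nuclei and came from male C57BL/6J mice, 8 weeks old, in which an AAV9 had been injected into the cisterna magna at 4 weeks of age. The AAV-VEGF-C group received a vector coding for full-length mouse VEGF-C, and the AAV-CTRL group received a vector coding for the immunoglobulin domains 4-7 of VEGFR3, which do not bind VEGF-C, so that all animals carried a vector. Brains of 5 mice were pooled in each AAV group, and tissue labelled cortex and tissue labelled striatum from each pool gave 1 library each. With 1 library per group there was no replicate, so no p-value is given, and every interval below covers counting error alone.

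Neuropeptide precursors are made in small groups of neurons, packed into dense-core vesicles, cut by prohormone convertases and released far from as well as at synapses. Oxytocin and vasopressin neurons of the paraventricular and supraoptic nuclei project to the posterior pituitary, melanin-concentrating hormone and orexin neurons of the lateral hypothalamus act on feeding and wakefulness, and AgRP and POMC neurons of the arcuate nucleus act in opposite directions on melanocortin receptors. Thyrotropin-releasing hormone drives the pituitary-thyroid axis, and the CART peptide is shared by several of these neuron types. A very high transcript level in few cells is therefore the usual pattern for such genes in hypothalamus, and cortex and striatum are not their main sites.

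Each UMI (unique molecular identifier) counts 1 captured RNA molecule, and levels are given as CPM, the UMIs of a gene per 1000000 UMIs of the nuclei named. Oxt and Avp, which code for oxytocin and vasopressin with their neurophysin carriers, lie on opposite strands of chromosome 2 with 3565 bases between their ends (Oxt chr2:130576173-130577054, Avp chr2:130580620-130582554, GRCm38, GENCODE M21). Pmch, the precursor of melanin-concentrating hormone, lies at chr10:88091072-88092375 and overlaps Parpbp on the other strand, so that its counts could in part be reads of that gene if strand was not used. Hcrt, the orexin precursor, lies at chr11:100761069-100762931. These 4 genes held 77.6% and 75.9% of the UMIs of the 8 genes in the 2 libraries labelled striatum. Their RefSeq promoters (GRCm38.p6, 250 bases before to 50 after the start, written 5′ to 3′ on the strand of the gene) are shown because the same genes were almost undetected in the libraries labelled cortex. Capitals mark the TATA box TATAAA, its variant CATAAA and, in Avp, the E-box CACGTG, all searched on both strands. In Pmch the letters CATAAA were matched only from the other strand, as TTTATG, and after the start.
Oxt, chr2:130575919-130576218, plus strand: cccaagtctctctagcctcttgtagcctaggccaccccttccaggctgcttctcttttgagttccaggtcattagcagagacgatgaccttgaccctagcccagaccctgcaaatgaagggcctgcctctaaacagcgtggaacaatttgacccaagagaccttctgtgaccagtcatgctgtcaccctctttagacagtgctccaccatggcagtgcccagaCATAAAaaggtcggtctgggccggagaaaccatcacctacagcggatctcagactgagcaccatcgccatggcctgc
Avp, chr2:130582539-130582838, minus strand: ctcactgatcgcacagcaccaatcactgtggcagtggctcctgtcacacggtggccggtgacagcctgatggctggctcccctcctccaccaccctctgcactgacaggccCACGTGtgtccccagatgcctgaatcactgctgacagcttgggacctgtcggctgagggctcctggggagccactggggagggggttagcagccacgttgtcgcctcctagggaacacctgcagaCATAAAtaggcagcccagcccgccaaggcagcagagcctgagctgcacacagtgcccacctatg
Pmch, chr10:88090822-88091121, plus strand: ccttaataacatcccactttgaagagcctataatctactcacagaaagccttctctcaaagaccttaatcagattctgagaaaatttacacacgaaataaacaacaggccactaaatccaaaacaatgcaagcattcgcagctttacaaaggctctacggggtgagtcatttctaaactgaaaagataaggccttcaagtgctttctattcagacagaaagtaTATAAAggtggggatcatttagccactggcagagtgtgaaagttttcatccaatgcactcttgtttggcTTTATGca
Hcrt, chr11:100762882-100763181, minus strand: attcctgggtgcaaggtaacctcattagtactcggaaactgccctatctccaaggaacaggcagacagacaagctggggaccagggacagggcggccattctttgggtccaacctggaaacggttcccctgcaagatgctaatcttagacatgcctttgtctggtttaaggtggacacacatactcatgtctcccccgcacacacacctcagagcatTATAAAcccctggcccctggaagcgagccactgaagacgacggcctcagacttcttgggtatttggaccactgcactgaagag

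The neighbours Oxt and Avp both held CATAAA, a variant of the TATA box, which was found in 11.9% of 32851 mouse promoters of the same length. Pmch held these letters too, but on the other strand and after the start, where they are not read as a TATA box. Pmch and Hcrt held TATAAA, as did Pomc, and 13.6% of all promoters did. CACGTG was found in Avp and in 7.15% of promoters, and the cAMP response element TGACGTCA was found in Cartpt and in 1.79%. Of the 8 genes, 7 matched an entry. None of these 4 motifs was found in the window of Trh, and no entry was matched for Agrp. A match describes letters in a window and shows no binding.

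The region labels matched the cortical genes looked at but not the striatal ones. The striatal genes Ppp1r1b, Rgs9, Drd1 and Drd2 were all higher in the libraries labelled cortex, with Ppp1r1b, which codes for DARPP-32, at 62.6 and 74.8 CPM against 18.1 and 18.1 in those labelled striatum. The cortical genes Slc17a7 and Tbr1 were also higher in the libraries labelled cortex, with Slc17a7 at 415 and 453 against 56.8 and 41.0 CPM. Dissection was not tested, and the libraries are called by their labels throughout. Totals ranged from 63165470 to 78332657 UMIs per library, and median UMIs per nucleus from 2272 to 2873. Between 76 and 118 cell barcodes were shared by any pair of libraries, and where a nucleus with 5 or more UMIs of a peptide gene shared its barcode with another library, the gene had 0 UMIs there.

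Nuclei with many UMIs of a peptide gene were nearly all in the libraries labelled striatum. A nucleus with 5 or more UMIs of any of the 8 genes is called a high nucleus here. There were 6 in cortex AAV-CTRL (0.0349% of nuclei, exact binomial 95% interval 0.0128-0.0761%) and 16 in cortex AAV-VEGF-C (0.0785%, 0.0449-0.128%). There were 413 in striatum AAV-CTRL (1.74%, 1.58-1.92%) and 347 in striatum AAV-VEGF-C (1.99%, 1.78-2.20%). Thus the intervals of the 2 region labels lay far apart, and those of the 2 AAV labels overlapped within each region label. Restricted to nuclei with a clear neuronal marker signal, the 2 striatum-labelled counts were 250 and 226, and the cortex-labelled counts were 5 and 16. Summed over the 8 genes, the level was 38.2, 44.8, 327 and 418 CPM in the same order, and in such a sum fewer expressing cells and less RNA per cell cannot be told apart.

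**Figure D1:**
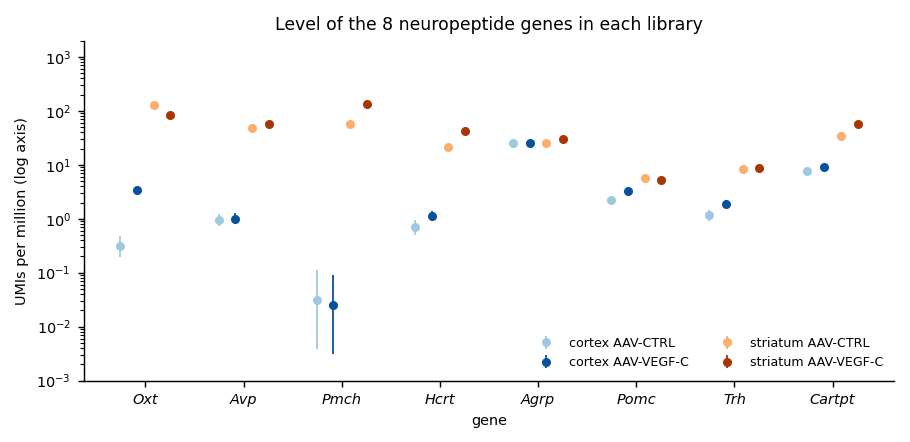
Level of each neuropeptide gene in the 4 libraries, in CPM on a log axis, with exact Poisson 95% intervals; each point is 1 library. Pmch has 2 UMIs in each library labelled cortex and 57.6 and 134 CPM in those labelled striatum, whereas Agrp lies between 24.9 and 30.1 in all 4.

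Oxt showed the largest single-nucleus counts. Its library totals were 20 UMIs in cortex AAV-CTRL, 265 in cortex AAV-VEGF-C, 9770 in striatum AAV-CTRL and 5640 in striatum AAV-VEGF-C, the order kept for all values given for 4 libraries, which is 0.317, 3.38, 126 and 83.2 CPM. High nuclei numbered 0, 1, 124 and 65, and 0 in 17168 nuclei allows a share of up to 0.0175%. In the top nucleus of striatum AAV-CTRL, 928 of 3236 UMIs were Oxt, which is 28.7% of everything counted in it. The next had 551 Oxt UMIs, and 15 nuclei of that library and 6 of striatum AAV-VEGF-C had 100 or more. Of the 265 Oxt UMIs of cortex AAV-VEGF-C, 228 came from 1 neuron-marker nucleus, which also held 16 Avp UMIs among its 6118.

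Avp totals were 61, 79, 3781 and 3883 UMIs, or 0.966, 1.01, 48.9 and 57.3 CPM. High Avp nuclei numbered 1, 1, 76 and 59, with highest counts of 24, 16, 209 and 282. The 2 striatum-labelled libraries thus both lay far above the 2 cortex-labelled ones for Avp, as for Oxt. Among nuclei with 20 or more UMIs of Oxt and Avp together, 1 of the pair usually dominated. In striatum AAV-CTRL there were 73 such nuclei, of which 44 had an Oxt share of 90% or more and 24 a share of 10% or less, with 5 between. In striatum AAV-VEGF-C the 45 such nuclei divided into 24, 20 and 1. The 1 between was the top Oxt nucleus of that library, with 529 Oxt and 237 Avp UMIs.

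The shares of nuclei with Sim1 and Otp, transcription factors needed for the development of oxytocin and vasopressin neurons, were followed over the number of Oxt or Avp UMIs in a nucleus. In striatum AAV-CTRL, Sim1 was found in 1.45% of nuclei with no Oxt UMI, in 1.77% of those with 1 to 4, in 0 of 51 with 5 to 9 (which allows up to 5.88%), in 5.17% of 58 with 10 to 99 and in 33.3% of 15 with 100 or more. In striatum AAV-VEGF-C the shares were 1.71%, 1.56%, 0 of 27 (up to 11.1%), 12.5% of 32 and 66.7% of 6. Nuclei with 1 to 9 Oxt UMIs were therefore not distinguishable in Sim1 from nuclei without Oxt at this depth, and only the highest bin had intervals clear of them in both libraries (11.8-61.6% and 22.3-95.7%). For Avp the share was already higher at 10 to 99 UMIs. Sim1 was found in 1.42%, 1.53%, 6.45% and 43.9% of nuclei with 0, 1 to 4, 5 to 9 and 10 to 99 Avp UMIs in striatum AAV-CTRL, and in 1.61%, 1.86%, 11.5% and 39.3% in striatum AAV-VEGF-C, with 80.0% of 5 at 100 or more. Otp did not have the same order. In striatum AAV-CTRL it was found in 1.51% of nuclei without Oxt, in 10.3% (3.89-21.2%) of those with 10 to 99 Oxt UMIs and in 1 of 15 (6.67%, 0.169-31.9%) with 100 or more. In striatum AAV-VEGF-C the same shares were 1.74%, 9.38% (1.98-25.02%) and 33.3% (4.33-77.7%). At 10 to 99 Avp UMIs Otp was in 8 of 41 nuclei (19.5%) and 2 of 28 (7.14%), and at 100 or more it was in 0 of 5 in striatum AAV-VEGF-C, which allows up to 60.0%. Depth differed between these groups and its part was not tested. Median UMIs per nucleus were 2246 without Oxt and 2302.5 in high Oxt nuclei of striatum AAV-CTRL, and 2621.5 and 3662 in striatum AAV-VEGF-C. With 10 to 99 Avp UMIs they were 4082 and 5146.5, against 2249 and 2621 without Avp.

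**Figure D2:**
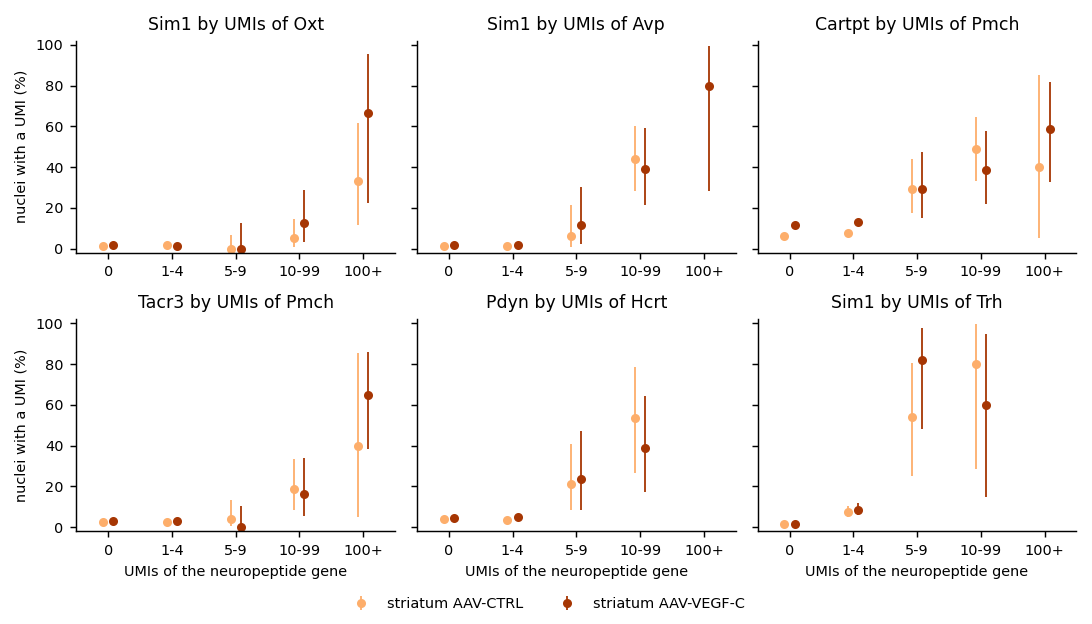
Share of nuclei with at least 1 UMI of a partner gene (y axis, percent, with exact binomial 95% intervals) by the number of UMIs of the peptide gene in the nucleus (x axis) in the 2 libraries labelled striatum; bins under 5 nuclei are left out. Sim1 is found in 1.45-1.77% of nuclei with 0 to 4 Oxt UMIs in both, and in 33.3% and 66.7% at 100 or more.

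Across genes with at least 100 UMIs in each library labelled striatum, 0.536% were 2-fold or more higher in high Oxt nuclei than in the other nuclei of both libraries, and 1.44% in high Avp nuclei, with high nucleus now meaning 5 or more UMIs of the gene named. In striatum AAV-CTRL Avp was 8.08-fold higher in high Oxt nuclei and Oxt 2.56-fold higher in high Avp nuclei. Both rest on few nuclei, with 173 Avp UMIs in 20 of 124 high Oxt nuclei and 101 Oxt UMIs in 26 of 76 high Avp nuclei. Only 5 nuclei of that library were high for both genes. In striatum AAV-VEGF-C the nucleus with 529 Oxt and 237 Avp UMIs held most of what such ratios rest on, with 237 of the 255 Avp UMIs in high Oxt nuclei and 529 of the 558 Oxt UMIs in high Avp nuclei, so none is given. An Avp UMI was found in 16.1% and 18.5% of high Oxt nuclei against 6.35% and 10.2% of the rest. Of 19 hypothalamic transcription factors, those so for Oxt included Sim1 and Otp, and 3 were so for Avp (Sim1, Otp and Pou3f2). Sim1 was 6.90-fold and 9.11-fold higher in high Oxt nuclei, and 25.3-fold and 29.2-fold higher in high Avp nuclei. Of 12 genes for peptide processing, Pcsk1, which codes for prohormone convertase 1, was higher for both (3.11-fold and 2.37-fold for Oxt, 2.73-fold and 2.94-fold for Avp). The genes that led for Avp by the fixed rule were Sim1, Kcnh1, Angpt1, Cdh9 and Ebf3. Kcnh1, a potassium channel, was 5.54-fold and 6.90-fold higher. Those that led for Oxt, namely Foxp2, Parm1, Fign, A830018L16Rik and Dpp6, were at most 2.31-fold higher. Of 11 other peptides, Gal, the galanin precursor, passed for Avp (8.36-fold and 3.08-fold) and none for Oxt. None of the 6 transmitter genes passed 2-fold in both libraries for Oxt, Avp, Pmch, Hcrt, Trh or Cartpt, and none of the 7 receptor genes measured did for Oxt or Avp.

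Pmch had the widest range of the 8 genes, with 2, 2, 4452 and 9081 UMIs, or 0.0317, 0.0255, 57.6 and 134 CPM. The 4 UMIs in the libraries labelled cortex lay in 4 nuclei. High nuclei numbered 0, 0, 99 and 82, and the top nuclei held 271 UMIs in striatum AAV-CTRL and 747 of 4443 (16.8%) in striatum AAV-VEGF-C. Nuclei with 100 or more Pmch UMIs numbered 5 and 17 in the same libraries.

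CART and the neurokinin 3 receptor, coded for by Cartpt and Tacr3, mark a subset of melanin-concentrating hormone neurons. Cartpt was found in 6.45% and 7.93% of nuclei with 0 and 1 to 4 Pmch UMIs in striatum AAV-CTRL, and in 29.4% and 48.8% of those with 5 to 9 and 10 to 99. With 100 or more it was found in 2 of 5 (40.0%, 5.27-85.3%). In striatum AAV-VEGF-C the shares were 11.7%, 13.3%, 29.4% and 38.7%, and 58.8% with 100 or more. Tacr3 was found in 2.84% and 3.29% of nuclei with 0 and 1 to 4 Pmch UMIs of striatum AAV-VEGF-C, in 0 of 34 with 5 to 9 (up to 8.82%), in 16.1% with 10 to 99 and in 64.7% of 17 with 100 or more. In striatum AAV-CTRL the Tacr3 shares over the same bins were 2.59%, 2.68%, 3.92%, 18.6% and 40.0% (2 of 5). Cartpt thus already stood apart at 5 to 9 Pmch UMIs in both libraries, where Tacr3 did not. Of all genes, 0.592% were 2-fold or more higher in high Pmch nuclei in both libraries. They included Cartpt (9.77-fold and 10.0-fold), the first of the 5 leading genes, which went on with Htr2c, Pld5, Ly6h and Parm1. The serotonin receptor gene Htr2c was 2.04-fold and 1.88-fold higher. Among the lists, Tacr3 (5.66-fold and 8.18-fold), the oxytocin receptor gene Oxtr (6.43-fold and 6.29-fold), Otp and Sox14 (2 of 19 transcription factors) and Gnrh1 (1 of 11 other peptides) passed, and none of the 12 processing genes did. The passes of Otp, Sox14 and Gnrh1 rest on few UMIs. In high Pmch nuclei 2 UMIs are 5.95 and 5.97 CPM. Over the whole 2 libraries Otp was at 5.01 and 4.99, Sox14 at 2.64 and 2.60 and Gnrh1 at 2.51 and 3.42 CPM.

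Hcrt totals were 44, 87, 1627 and 2889 UMIs, or 0.697, 1.11, 21.1 and 42.6 CPM. No nucleus labelled cortex had more than 1 Hcrt UMI, and the limits on high nuclei were 0.0175% and 0.0147%. High nuclei numbered 43 and 42 in the AAV-CTRL and AAV-VEGF-C libraries labelled striatum, and their highest counts were 68 and 204. The nucleus with 204 held 1897 UMIs in all, so that Hcrt made up 10.8% of it. Orexin neurons co-release dynorphin, the product of Pdyn. Pdyn was found in 3.84%, 3.79%, 21.4% and 53.3% of nuclei with 0, 1 to 4, 5 to 9 and 10 to 99 Hcrt UMIs in striatum AAV-CTRL, and in 4.40%, 5.04%, 23.8% and 38.9% in striatum AAV-VEGF-C. Nuclei with 1 to 4 Hcrt UMIs were not distinguishable in Pdyn from those without Hcrt, and both bins of high nuclei had more.

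In high Hcrt nuclei, 1.81% of all genes were 2-fold or more higher in both libraries. The leading genes were Pdyn (8.21-fold and 7.75-fold), C1ql3 (6.66-fold and 6.89-fold), Scg2, Slc2a13 and Dlk1. Scg2, a granin of dense-core vesicles, was 5.32-fold and 6.71-fold higher and was found in 93.0% and 90.5% of high Hcrt nuclei. With Pcsk1 (5.15-fold and 7.15-fold) it made 2 of 12 processing genes. Lhx9, a transcription factor of orexin neurons, was 3.94-fold and 2.59-fold higher and was the only 1 of 19 on its list to pass. None of the 7 receptors, 11 other peptides and 7 other members passed. Of the 43 high Hcrt nuclei of striatum AAV-CTRL, 1 was also high for Avp, and of the 42 of striatum AAV-VEGF-C, 1 was for Pmch and 1 for Cartpt.

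Trh, the precursor of thyrotropin-releasing hormone (chr6:92242061-92244650), had totals of 74, 146, 653 and 591 UMIs, or 1.17, 1.86, 8.45 and 8.72 CPM. High nuclei numbered 0, 1, 18 and 16 with highest counts of 4, 8, 12 and 31. No high Trh nucleus of the libraries labelled striatum carried a glial or endothelial marker signal, and 14 of 18 and 15 of 16 carried the neuronal one. Sim1, which marks the paraventricular nucleus, was found in 1.36% of nuclei without Trh, in 7.60% with 1 to 4 Trh UMIs, in 53.8% of 13 with 5 to 9 and in 80.0% of 5 with 10 to 99 in striatum AAV-CTRL. In striatum AAV-VEGF-C the shares were 1.53%, 8.61%, 81.8% of 11 and 60.0% of 5. For Trh, then, even 1 to 4 UMIs went with a higher share of Sim1 nuclei. Depth was also higher in each bin, with medians of 2261, 3231, 5047 and 5461 UMIs in striatum AAV-CTRL and 2636, 3221, 6151 and 7398 in striatum AAV-VEGF-C, and its part was not tested. Of all genes, 2.54% were 2-fold or more higher in high Trh nuclei in both libraries. Sim1 led (32.0-fold and 31.4-fold), before Gm2694, the cerebellins Cbln2 and Cbln1, and Angpt1, and Otp was 8.15-fold and 9.78-fold higher (2 of 19 transcription factors with Sim1). Pcsk1 and Scg2 passed among 12 processing genes, Hcrtr1 among 7 receptors, Gal, Ghrh and Adcyap1 among 11 other peptides, and Cartpt among the 7 other members. The passes of Hcrtr1, Gal, Ghrh and Adcyap1 rest on few UMIs and are not read as co-expression. In the 18 high Trh nuclei of striatum AAV-CTRL, 1 UMI is 10.1 CPM. Over that whole library Hcrtr1 was at 3.55, Gal at 8.65, Ghrh at 1.94 and Adcyap1 at 10.3 CPM.

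Pomc, the precursor of alpha-MSH and ACTH (chr12:3954951-3960642), was low in every library, with 141, 257, 448 and 350 UMIs or 2.23, 3.28, 5.80 and 5.16 CPM. High nuclei numbered 0, 1, 8 and 4, with highest counts of 2, 23, 33 and 40. Cartpt is made in many arcuate POMC neurons, and 5 of the 8 and 2 of the 4 high Pomc nuclei in the libraries labelled striatum were also high for Cartpt. The top Pomc nuclei of those libraries held 20 and 21 Cartpt UMIs. With 4 high nuclei in striatum AAV-VEGF-C, fewer than the 5 set as a minimum, no leading genes were taken.

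Outside the high nuclei, Pomc had a second pattern. In nuclei with endothelial markers its level was 16.2 CPM (exact Poisson interval 10.5-24.0) in cortex AAV-CTRL, 23.9 (17.1-32.5) in cortex AAV-VEGF-C, 16.3 (11.6-22.2) in striatum AAV-CTRL and 16.04 (11.1-22.4) in striatum AAV-VEGF-C. In neuron-marker nuclei under 5 UMIs it was 1.69, 2.35, 3.41 and 3.59. The endothelial-marker nuclei were above the neuronal ones in 4 of 4 libraries, with intervals that did not overlap, and none had 5 or more Pomc UMIs. A Pomc UMI was found in 5.56%, 7.42%, 4.57% and 5.86% of these nuclei, and in 0.211%, 0 of 598 (up to 0.502%), 0.788% and 0.813% of oligodendrocyte-marker nuclei, whose median depths were 1842, 1812.5, 1801 and 2167 UMIs against 2400.5, 2500, 1958 and 2406 in the endothelial-marker nuclei. Thinned to 1000 UMIs per nucleus, the endothelial shares were 0.739%, 2.33%, 1.56% and 1.78%.

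Cartpt (chr13:99898489-99901091) was the member most often found in the libraries labelled cortex after Agrp, with 482, 710, 2637 and 3859 UMIs or 7.63, 9.06, 34.1 and 56.9 CPM. High nuclei numbered 5, 12, 63 and 93, and all 17 in the cortex-labelled libraries carried the neuronal marker signal. Highest counts were 9, 16, 89 and 157. Of all genes, 1.24% were 2-fold or more higher in high Cartpt nuclei in both striatum-labelled libraries. Vgf, another secreted granin-like precursor, led (3.63-fold and 3.48-fold), followed by Dlk1, the prolactin receptor gene Prlr (2.58-fold and 3.07-fold), Ptpro and Zdbf2. Vgf and Pcsk1 passed among 12 processing genes, Nkx2-1 and Isl1 among 19 transcription factors, Gal, Ghrh and Nts among 11 other peptides, Oxtr among 7 receptors, and Pmch, Pomc and Trh among 7 members. Pmch was 26.9-fold and 43.9-fold higher in these nuclei. Few nuclei carried the other members. Of the 48 Pomc UMIs in high Cartpt nuclei of striatum AAV-VEGF-C, 40 were in 1 nucleus, and of the 70 Trh UMIs 31 and 28 were in a nucleus each.

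Agrp stood apart from the other members. It had 1587, 1967, 1927 and 2037 UMIs, or 25.1, 25.1, 24.9 and 30.1 CPM, with 0, 1, 2 and 5 high nuclei and highest counts of 3, 9, 6 and 10. Its 10 highest nuclei held 2.02% and 2.45% of its UMIs in the 2 libraries labelled striatum, close to the medians over all genes with at least 100 UMIs (1.97% and 2.38%). The same share was 35.2% and 31.3% for Oxt, 28.0% and 33.8% for Avp, 25.4% and 34.3% for Pmch, 19.4% and 33.3% for Hcrt, 27.7% and 21.4% for Pomc, 14.9% and 25.04% for Trh and 16.1% and 15.5% for Cartpt. The annotated Agrp gene spans 70696 bases (chr8:105566698-105637393) through an extended transcript and overlaps 7 other genes, 2 of them on its strand, so its counts are uncertain as a measure of the AgRP transcript. Nuclei with 1 to 4 Agrp UMIs were deep, with median totals of 4835.5 and 5753.5 UMIs against 2170.5 and 2486 in nuclei without one.

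**Figure D3:**
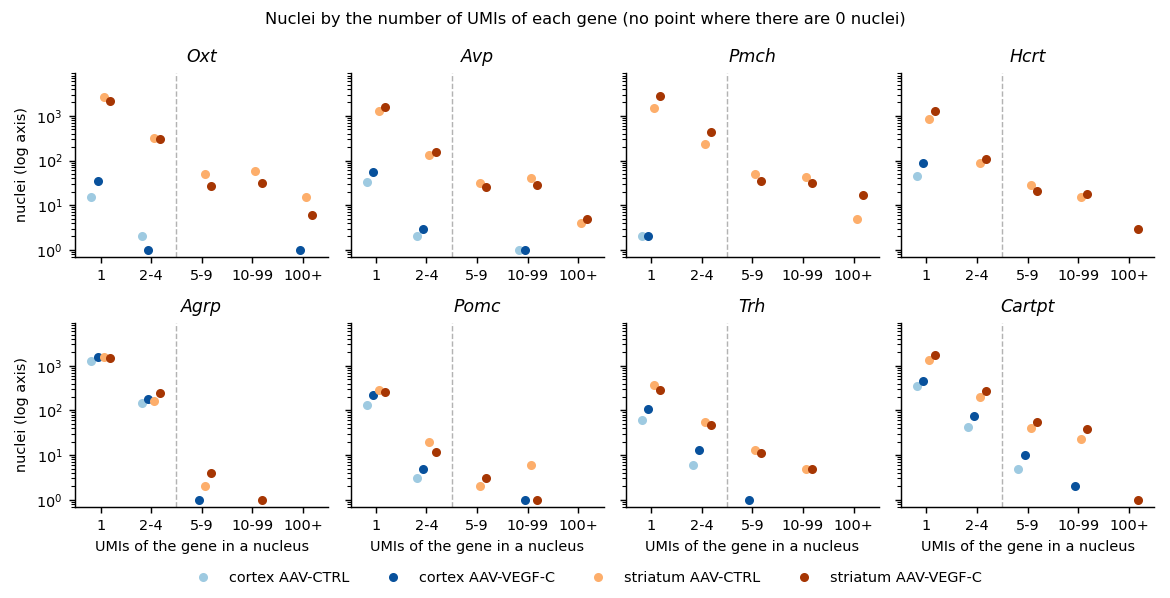
Number of nuclei (log axis) by the number of UMIs of each peptide gene in the nucleus, in the 4 libraries; the dashed line separates low counts from 5 or more, and bins with 0 nuclei have no point. Oxt, Avp, Pmch and Hcrt in the libraries labelled striatum have both many nuclei with 1 UMI and a tail to 100 or more (for Hcrt only in striatum AAV-VEGF-C), and Agrp has hardly any nucleus past 4.

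Low counts of Oxt, Avp, Pmch and Hcrt were spread widely over the libraries labelled striatum. At least 1 UMI of 1 of these 4 genes was found in 27.9% of nuclei of striatum AAV-CTRL and 42.4% of striatum AAV-VEGF-C, against 0.565% and 0.893% in cortex AAV-CTRL and cortex AAV-VEGF-C. To describe the spread, nuclei with under 5 UMIs of a gene were divided by marker genes. A class was given where the markers of 1 cell type summed to at least 5 UMIs and to at least 3 times those of every other, a range of signal rather than a cell type, 29.3-35.1% of nuclei had no class, and of the neuron-marker nuclei 279, 306, 684 and 283 lay at the limit of it. Oligodendrocyte-marker nuclei, which are not known to make these peptides, had Oxt at 60.4 CPM (53.4-68.0) in striatum AAV-CTRL and 75.5 (67.8-83.9) in striatum AAV-VEGF-C, and 0 Oxt UMIs in both libraries labelled cortex. Neuron-marker nuclei had 33.0 (31.4-34.6) and 31.3 (29.6-33.0).

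The same order held for the other genes of the 4. Pmch was at 48.5 and 92.2 CPM in oligodendrocyte-marker nuclei and at 19.8 and 41.5 in neuron-marker nuclei. Hcrt was at 23.5 and 34.8 against 10.5 and 17.7, and Avp at 33.5 and 41.4 against 16.7 and 21.5. Astrocyte-, microglia- and endothelial-marker nuclei were also above the neurons for Oxt, Pmch and Hcrt, with Oxt between 51.3 and 114 in the non-neuronal classes of striatum AAV-CTRL. Low counts of all 4 genes were thus higher per UMI in oligodendrocyte-marker than in neuron-marker nuclei. Other classes did not all stand apart. Avp was at 15.0 CPM (4.89-35.1) in microglia-marker nuclei of striatum AAV-CTRL, against 16.7 in neuron-marker nuclei. For Hcrt, the endothelial intervals (11.2-21.7 and 14.7-27.4) overlapped the neuronal ones (9.59-11.4 and 16.5-19.0) in both libraries. In shares of nuclei, a Pmch UMI was found in 18.0% of oligodendrocyte-marker nuclei of striatum AAV-VEGF-C (median 2168 UMIs) and in 18.7% of neuron-marker nuclei under 5 UMIs (median 4828). Thinned to 1000 UMIs, the shares were 8.94% and 5.79%. Without thinning, the order was not the same for every gene, with Oxt found in 13.0% of neuron-marker and 10.5% of oligodendrocyte-marker nuclei of striatum AAV-CTRL (4.46% and 6.52% thinned). A share of nuclei with a few UMIs is therefore not read as expression of these genes.

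The make-up of these low counts was compared between classes. In striatum AAV-CTRL, Oxt made up 36.3% and Pmch 29.2% of their 746 UMIs in oligodendrocyte-marker nuclei, and 41.2% and 24.8% of 3854 in neuron-marker nuclei. In striatum AAV-VEGF-C, Pmch was the first, with 37.8% of 1121 and 37.1% of 4967, and Oxt had 31.0% and 27.9%. The high nuclei of the 2 libraries differed in the same direction for Oxt and Pmch. These were at 55.7% and 20.7% in striatum AAV-CTRL and at 24.7% and 46.3% in striatum AAV-VEGF-C. High nuclei and low counts did not have the same make-up. Hcrt was at 4.75% in high nuclei of striatum AAV-CTRL, and at 14.2% and 13.2% in low counts of oligodendrocyte- and neuron-marker nuclei. In striatum AAV-VEGF-C these Hcrt shares were 11.9%, 14.3% and 15.8%. Free RNA in the nuclear suspension was not tested, since no empty droplets were used here. High nuclei were not all neuronal by markers either. Of the 124 high Oxt nuclei of striatum AAV-CTRL, 71 carried the neuronal signal, 28 no clear signal, 10 the oligodendrocyte, 7 the astrocyte, 7 the endothelial and 1 the microglial one. Of the 99 high Pmch nuclei of that library, 47.5% carried the neuronal signal, close to the 46.2% of nuclei without a Pmch UMI. In striatum AAV-VEGF-C these shares were 61.0% and 48.4%. Scrublet called 11.4% and 6.34% of high nuclei doublets in the 2 libraries labelled striatum, against 7.95% and 4.31% of all their nuclei.

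**Figure D4:**
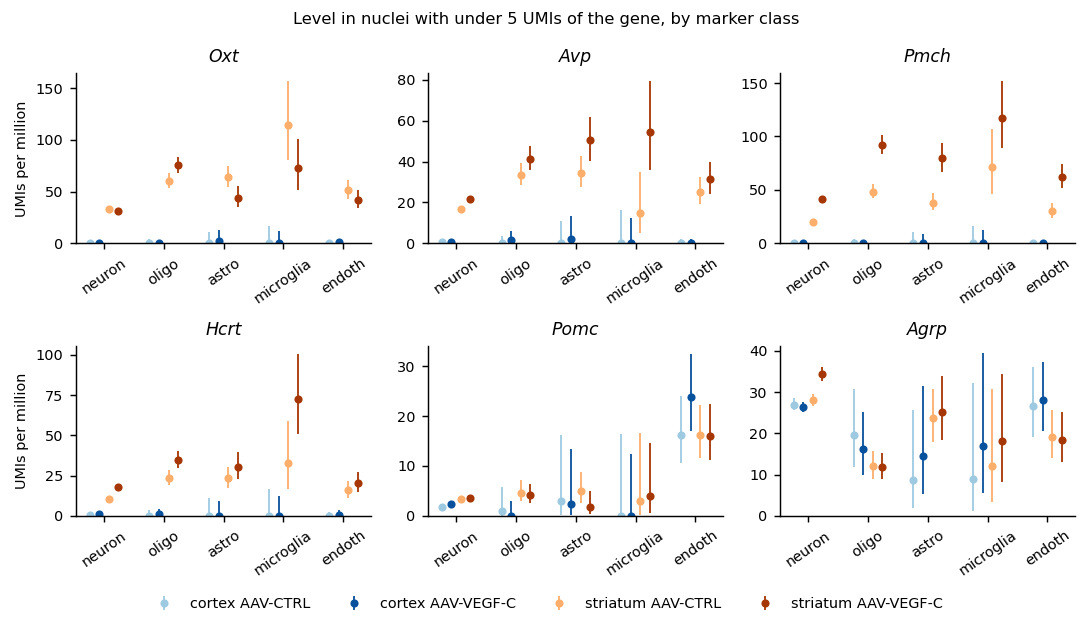
Level of 6 of the genes in nuclei with under 5 UMIs of the gene, in CPM with exact Poisson 95% intervals, by marker class (oligodendrocyte, astrocyte, microglia, endothelial and neuron; the oligodendrocyte precursor class, of 11 to 61 nuclei, is not drawn) and library. Oxt, Avp, Pmch and Hcrt are near 0 in every class of the libraries labelled cortex and above the neurons in oligodendrocyte-marker nuclei of those labelled striatum, and Pomc is highest in endothelial-marker nuclei of all 4.

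Between the region labels, 7 of the 8 genes were 2-fold or more higher in striatum AAV-CTRL than in cortex AAV-CTRL, where 9.68% of all genes with at least 20 UMIs in the pair were higher and 4.99% lower by that much. In the AAV-VEGF-C pair it was 6 of 8, against 9.74% higher and 5.28% lower, and within each pair both libraries came from the same pooled mice. Log2 ratios in the AAV-CTRL and AAV-VEGF-C pairs were 8.64 and 4.62 for Oxt, 5.66 and 5.83 for Avp, 4.92 and 5.26 for Hcrt, 2.85 and 2.23 for Trh, 2.16 and 2.65 for Cartpt, 1.38 and 0.65 for Pomc, and -0.01 and 0.26 for Agrp. For Pmch they were 10.83 (8.98-13.88) and 12.36 (10.50-15.40), and the width comes from the 2 UMIs in each cortex-labelled library. Without the highest Oxt nucleus of each library the Oxt ratio of the AAV-VEGF-C pair was 7.32. Scaling by the median of gene ratios instead of totals moved all log2 ratios by -0.18 and -0.20, which left each of the 7 other members higher in the libraries labelled striatum and put Agrp at -0.19 and 0.06.

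Lists of related genes were read against the same shares. Of 28 hypothalamic transcription factors, 24 were 2-fold or more higher in the library labelled striatum in the AAV-CTRL pair and 22 in the AAV-VEGF-C pair, and none was lower by as much. Arnt2, Pou3f2 and Six3 had the highest summed levels. Arnt2 was at 150, 148, 133 and 127 CPM and Pou3f2 at 22.4, 22.5, 22.0 and 20.3. Lhx6, named here after its values were seen, ran the other way, at 9.13, 8.71, 5.79 and 5.52. Six3 was at 9.21, 12.3, 24.98 and 24.4, and Vax1, the lowest, at 0.0950, 0.128, 0.207 and 0.162. Of other hypothalamic peptides, 7 of 17 were higher and 3 lower in the AAV-CTRL pair, and 12 of 18 were higher and 2 lower in the AAV-VEGF-C pair. Cck, Sst and Npy, which cortical neurons also make, had the highest levels and were lower in the libraries labelled striatum, with Cck at 328 and 392 against 104 and 121, Sst at 153 and 147 against 73.6 and 94.03, and Npy at 92.6 and 99.1 against 17.4 and 16.9. Kiss1, the lowest, had 1 UMI in all.

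Receptors of the peptides were 2-fold or more higher in 4 of 10 and 4 of 11 cases and lower in 0 and 1. The orexin receptor gene Hcrtr2 was at 9.50 and 8.41 against 19.5 and 20.2 CPM, Mchr1 at 7.17 and 8.50 against 4.12 and 4.18, and Trhr at 5.26 and 5.76 against 7.88 and 7.17. Avpr1b, the lowest, had 9, 3, 0 and 0 UMIs. Genes for peptide processing, which neurons of all regions use, were higher in 1 and 2 of 12 and lower in 1 and 0, and the higher 1 in the AAV-CTRL pair was Scg2, at 99.3 against 222 CPM. Cpe was at 740, 772, 714 and 686, Pcsk2 at 836, 855, 400 and 464, and Pam at 340, 314, 353 and 342, and Furin, the lowest, at 20.8, 22.2, 25.05 and 22.6. Transmitter genes were higher in 2 and 1 of 6 and lower in 1 and 1 (Slc17a7 in both pairs), with Gad2 at 94.2 and 98.4 against 197 and 196 and Gad1 at 93.0 and 93.7 against 136 and 117. Slc17a8 was the lowest, at 3.45 and 3.01 against 4.06 and 4.75. Slc17a6, the glutamate transporter gene of hypothalamus and thalamus, was at 15.9 and 15.9 against 144 and 172.

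Pituitary genes, markers of a neighbouring tissue that holds Pomc cells, were scarce. They summed to 1.504, 2.71, 3.79 and 4.72 CPM over 10 genes, were higher in 3 of 5 in both pairs and lower in 0 and 1, and Fshb had 0 UMIs in all 4 libraries. Pitx1 had 33, 36, 129 and 90 UMIs, Tshb 31, 36, 53 and 87, and Gh, the growth hormone gene, 0, 82, 44 and 30. The part of pituitary in the Pomc values was not tested. Of 5 tanycyte genes 1 was higher and 1 lower in both pairs, with Rax, the lowest, at 3, 7, 18 and 41 UMIs, Col23a1 at 25.8, 22.8, 30.6 and 29.9 CPM, Crym at 33.7, 34.7, 14.3 and 9.28 CPM and Scn7a at 5.62, 5.02, 8.75 and 6.60 CPM.

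Between the AAV labels, 2 of 8 genes were 2-fold or more apart in the libraries labelled striatum, where 2.68% of all genes were, and 1 of 7 in those labelled cortex, where 1.17% were. In the striatum-labelled pair, Pmch was at 134 CPM with AAV-VEGF-C against 57.6 with AAV-CTRL (log2 ratio 1.22, 1.17 to 1.27) and Hcrt at 42.6 against 21.1 (1.02, 0.93 to 1.11). Hcrt lay at the limit. It was at 0.97 without the top nucleus of each library and at 0.99 without doublets. Cartpt was at 56.9 against 34.1 (0.74, 0.67 to 0.81) and Avp at 57.3 against 48.9 (0.23, 0.16 to 0.29). Oxt was lower, at 83.2 against 126 (-0.60, -0.65 to -0.56). Agrp differed by 0.27, Trh by 0.04 (-0.12 to 0.21) and Pomc by -0.17 (-0.37 to 0.04).

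The number of high nuclei was compared next. The share of high Pmch nuclei was 0.417% and 0.469% in the AAV-CTRL and AAV-VEGF-C libraries labelled striatum, a log2 ratio of 0.17 (-0.27 to 0.61), and that of high Hcrt nuclei 0.181% and 0.240%, a log2 ratio of 0.41 (-0.24 to 1.06). Both intervals included 0, and that of Hcrt also included the ratio of the summed level. The UMIs held by high nuclei were 2360 and 5304 for Pmch and 542 and 1364 for Hcrt, nuclei with 100 or more Pmch UMIs numbered 5 and 17, and low counts in the other nuclei differed by 1.04 and 0.68. For Oxt the share of high nuclei was 0.523% with AAV-CTRL and 0.372% with AAV-VEGF-C (-0.49, -0.95 to -0.05), with low counts at -0.10. For Cartpt the share was 0.266% and 0.532% (1.00, 0.53 to 1.49), with low counts at 0.60. With 1 pool per label, an AAV effect and a difference in the tissue taken cannot be told apart.

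In the libraries labelled cortex, the 1 gene past 2-fold was Oxt, at 3.38 against 0.317 CPM (log2 ratio 3.42, 2.76 to 4.15). It rested on the 1 nucleus with 228 UMIs. Without the highest nucleus of each library the ratio was 0.81, and over nuclei with under 5 UMIs it was 0.58 (-0.25 to 1.44). Hcrt differed by 0.67 (0.13 to 1.23), Trh by 0.67 (0.26 to 1.09), Pomc by 0.56 (0.25 to 0.86) and Cartpt by 0.25 (0.08 to 0.42), all higher with AAV-VEGF-C. Avp differed by 0.06 and Agrp by -0.00. Pmch, with 2 and 2 UMIs, was under the minimum.

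In the striatum-labelled pair, 2 of 18 other peptides, 1 of 6 pituitary genes and 1 of 5 tanycyte genes were 2-fold or more higher with AAV-VEGF-C, and 0 were lower. None of 28 transcription factors, 12 processing genes, 10 receptors and 6 transmitter genes was past 2-fold. In the cortex-labelled pair, 1 of 9 receptors and 1 of 4 pituitary genes were higher and 1 of 16 other peptides was lower. The hypothalamic transcription factors summed to 283 and 282 CPM in the AAV-CTRL and AAV-VEGF-C libraries labelled striatum, with a median log2 ratio of 0.06 over the 28.

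**Figure D5:**
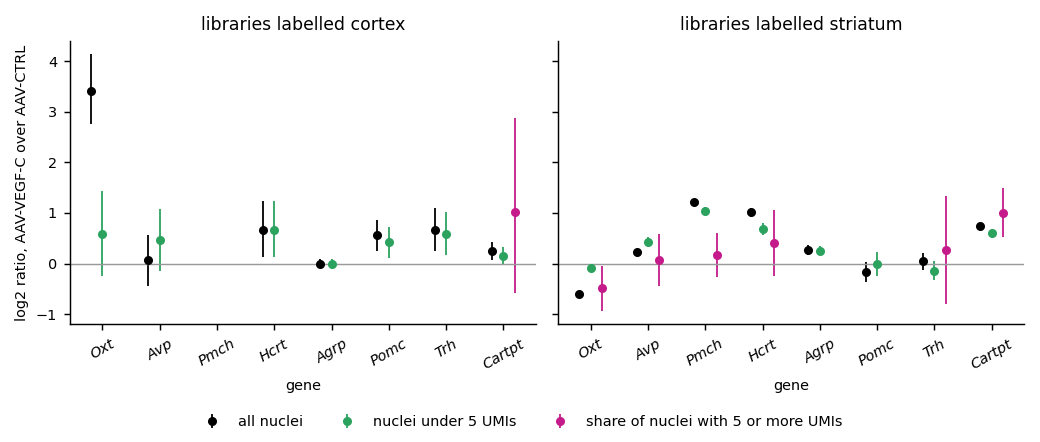
Log2 ratio of AAV-VEGF-C over AAV-CTRL for each gene in the 2 region labels, from all nuclei (black), from nuclei with under 5 UMIs of the gene (green) and for the share of nuclei with 5 or more (magenta, where both libraries have at least 5), with exact conditional 95% intervals that cover counting error alone. In the striatum label Pmch is at 1.22 over all nuclei and at 0.17 in the share of high nuclei, and in the cortex label Oxt goes from 3.42 to 0.58 once the high nucleus is left out.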

How the data were processed

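Nuclei were profiled with the 10x Genomics 3′ v3 kit. The authors deposited raw UMI counts per gene and nucleus from Cell Ranger, with version 5.0.1 per the file headers, whereas the submitters' processing notes name 5.1.1 and mm10. The annotation and the counting of introns are not given in the sources used here. The deposited counts were used with no further filter on nuclei (lowest total 719 UMIs).

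Counts were summed per library and scaled to CPM. Ratios have exact conditional binomial intervals, levels exact Poisson intervals and shares Clopper-Pearson intervals, all at 95%. UMIs count molecules, and the intervals cover counting error only. Genes with at least 20 UMIs over a pair were compared. Since each group is a single library, no test was made. A 2-fold rule was used. Marker classes needed 5 marker UMIs and 3 times every other list. Doublets (Scrublet in scanpy 1.11.5, expected rate 8%) were kept, and left out only as an alternative. Shares were also taken at 1000 UMIs drawn from each nucleus, without the 642 and 709 nuclei below that depth in the cortex-labelled and the 1537 and 425 in the striatum-labelled libraries (AAV-CTRL first). Leading genes were the 5 with the highest ratio of level in high nuclei over the other nuclei, ranked by the lower ratio of the 2 libraries labelled striatum, among genes with a UMI in at least 25% of high nuclei of each and 20 UMIs in all. A list gene compared in high nuclei needed 100 UMIs in each library labelled striatum, with no minimum in the high nuclei. Some 2-fold passes therefore rest on few UMIs. Values of lists were given for the highest 3 and the lowest. Some list genes are not reported here. The 8 genes and all lists were chosen with earlier results of these data known. Python 3.11.15, numpy 2.4.6, scipy 1.17.1 and pandas 2.3.3 were used.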

Additional observations from a re-analysis of the deposited data

Results flagged for a closer look

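The ratio of AAV-VEGF-C to AAV-CTRL for Oxt went in opposite directions under the 2 region labels, at a log2 ratio of 3.42 in the libraries labelled cortex and -0.60 in those labelled striatum. With 1 library per group the difference between the 2 ratios was not tested. The first value rests on 1 nucleus with 228 Oxt UMIs, and is 0.81 without the highest nucleus of each library, where the second is -0.60.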

How the results depend on the processing

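No paired analysis was possible because each group has 1 library. The count of high nuclei followed its threshold. With the cortex label before the striatum label and AAV-CTRL before AAV-VEGF-C, it was 39, 70, 749 and 674 at 3 or more UMIs, 1, 4, 207 and 178 at 10 or more, and 1, 3, 155 and 133 after thinning to 1000 UMIs, against 6, 16, 413 and 347. At 2 or more UMIs per 1000 it was 3 and 5 in the cortex-labelled libraries. Within neuron-marker nuclei, an alternative chosen after seeing the data, it was 250 and 226 in the striatum-labelled ones. The libraries labelled striatum held more high nuclei than those labelled cortex under each of these settings. The number of members past 2-fold between AAV labels was 0 in the cortex label without the highest nucleus of each member (1 as reported), and 1 in the striatum label both without doublets and without the highest nucleus (2 as reported). The numbers between region labels did not change under other scaling, no minimum count, doublet removal, thinning or removal of the highest nucleus. The members' summed level in oligodendrocyte-marker nuclei was 197 and 291 CPM over nuclei with under 3 UMIs, against 213 and 310 with under 5, in the libraries labelled striatum. Depth limits the cortex-labelled values of Pmch, which rest on 2 UMIs each.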
